A study of Mus musculus with 6 samples.

Results

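Carbonic anhydrases are zinc enzymes that turn carbon dioxide and water into bicarbonate and a proton, and back. Mammalian family members differ mainly in where they work: in the cytosol, in mitochondria, or on the outer face of the plasma membrane, where they act beside bicarbonate, proton and lactate transporters. In the intestine they are best known from epithelial cells, and in blood from red cells. Their expression was measured in eosinophils, a granulocyte type, taken from the lamina propria of the small intestine. The 10 genes described here, Car1, Car2, Car3, Car4, Car5b, Car7, Car8, Car9, Car12 and Car13, were taken by symbol from 23656 genes in the deposited tables. Car4 was chosen by its difference in FPKM between the groups, so its levels are given as a description with no test. The other 9 belong to the same family, and the list was drawn up with earlier results of these data known. The files hold 16 carbonic anhydrase genes in all, and the other 6 are given for comparison.

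Eosinophils of wild-type BALB/c mice were kept in culture for 4 hours, in 3 cultures with GM-CSF at 10 ng/ml and 3 cultures without it. The cytokine GM-CSF reaches eosinophils through a receptor that activates the transcription factor STAT5, and the design compares gene levels with and without it. Polyadenylated RNA was sequenced, and levels are FPKM, fragments scaled to transcript length and to the mapped fragments of the library, which allows levels to be compared between genes. The sources used here do not say how the cells were isolated or whether each culture had its own animals, and the p-values therefore cover variation among cultures, which may be technical.

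The libraries rested on 0.820 to 1.32 gigabases of mapped sequence with GM-CSF and on 0.917 to 0.974 gigabases without it. A filter kept 10140 genes whose 6 libraries averaged 1 FPKM or more, and 21.8% of these changed (limma, adjusted p under 0.05), 7.60% upwards and 14.2% downwards. That split depended on the scaling: 1075 genes rose and 968 fell with median-of-ratios factors, against 771 and 1438 as deposited, and the split was 941 to 1111 after quantile normalization and 789 to 913 after rescaling to one FPKM sum. Eosinophil markers were present, with Siglec5, the files' symbol for Siglecf, at 170.4 and 170.1 FPKM and Ccr3 at 251.3 and 289.0 FPKM in GM-CSF and untreated cultures. Of the 6 eosinophil markers 3 fell and 0 rose, and their sum was 562.2 to 647.3 FPKM with GM-CSF and 904.6 to 1047 FPKM without it. Most of that difference was a single gene, Alox15, with means of 157.0 FPKM with GM-CSF and 460.6 FPKM without it.

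Markers of other cell types were measurable too, and more of them fell than rose. Intestinal epithelial markers summed to between 58.0 and 73.6 FPKM in GM-CSF cultures and between 89.2 and 97.5 FPKM in untreated ones, and of 9 tested 4 fell and 0 rose. All 5 tested B and plasma cell markers and all 4 tested T cell markers fell, with sums of 16.1 to 17.5 against 30.7 to 38.0 FPKM and of 14.6 to 17.1 against 26.9 to 27.996 FPKM. Of 5 tested macrophage and dendritic cell markers 3 fell and 0 rose, though their sums overlapped (864.4 to 938.8 FPKM with GM-CSF and 832.4 to 889.5 FPKM without it). Nearly all of that sum was Emr1 (means 426.4 and 367.8 FPKM with and without GM-CSF) and Itgax (430.7 and 449.8 FPKM), and neither passed. Both lay above Siglec5 and Ccr3, while C1qa averaged 0.236 and 0.250 FPKM and C1qb 0.0995 and 0.332 FPKM. Which cells the Emr1 and Itgax RNA came from was not tested, so that sum is no measure of macrophage or dendritic cell RNA. The 3 that fell, Csf1r, Apoe and Lyz2, had group means between 6.70 and 21.7 FPKM. Of 5 neutrophil markers 2 fell and 1, Cxcr2, rose, with sums of 1149.8 to 1179.5 and of 1377.7 to 1494 FPKM, and Camp was listed at 0. A single gene, Retnlg, made up most of these sums, with means of 998.6 FPKM with GM-CSF and 1343.9 FPKM without it. S100a8 averaged 8.48 and 15.1 FPKM and Mmp8 10.4 and 11.7 FPKM. Of 3 mast cell markers 1 fell, and of 3 stromal, endothelial, fat and muscle markers 1 rose and 1 fell. Of the 5 erythroid markers found, Slc4a1 was listed at 0 in every library, and only the globin gene Beta-s was abundant enough to be tested (limma adjusted p = 0.561). In bulk RNA, fewer cells of a type and less RNA per cell cannot be told apart.

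The promoters of Car4 and Car9 are printed because Car4 carries the finding and Car9 is the family's textbook hypoxia-inducible gene. Each runs from 250 bases before to 50 bases after the RefSeq start of the gene (GRCm38.p6), Car4 on the plus strand at chr11:84957504-84957803 and Car9 on the plus strand at chr4:43506776-43507075. Capitals mark matches on either strand to ACGTG or GCGTG, the core letters bound by hypoxia-inducible factors, and to TATAAA, the TATA box. The STAT motif TTCNNNGAA was also searched.
Car4: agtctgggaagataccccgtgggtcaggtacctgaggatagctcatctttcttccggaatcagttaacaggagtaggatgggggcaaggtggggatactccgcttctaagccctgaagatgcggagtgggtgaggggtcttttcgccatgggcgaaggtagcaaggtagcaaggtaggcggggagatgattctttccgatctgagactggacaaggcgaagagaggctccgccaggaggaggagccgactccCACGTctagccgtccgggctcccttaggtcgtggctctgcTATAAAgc
Car9: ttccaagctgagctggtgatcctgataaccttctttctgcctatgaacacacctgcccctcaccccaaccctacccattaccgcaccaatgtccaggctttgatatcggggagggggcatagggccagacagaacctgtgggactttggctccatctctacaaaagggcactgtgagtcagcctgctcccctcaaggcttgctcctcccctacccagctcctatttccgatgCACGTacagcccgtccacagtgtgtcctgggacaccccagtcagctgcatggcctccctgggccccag

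Both windows hold 1 match to the hypoxia core, just after the annotated start in Car4 and shortly before it in Car9. Such a match was found in 43.8% of all 32851 promoter windows of this length. The Car4 window also holds 1 TATAAA, which lies downstream of the annotated start and which 13.6% of windows hold. TTCNNNGAA was found in 8.30% of windows and in none of the 7 windows of the 5 members that RefSeq promoters were matched to, which were Car4, Car5b, Car7 with 3 windows, Car9 and Car12. These letters are descriptions of short windows and not binding sites.

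Car4 encodes a carbonic anhydrase held on the outer face of the plasma membrane by a lipid (GPI) anchor. It was measured at 62.2, 72.4 and 68.8 FPKM in the 3 GM-CSF cultures, and at 0.943, 0.976 and 1.07 FPKM in the 3 untreated cultures. The groups were far apart and the replicates within each group lay close together. Means were 67.8 ± 5.15 FPKM with GM-CSF and 0.997 ± 0.0680 FPKM without it (SD, n = 3 each), a ratio of 68.0. On the log2(FPKM + 1) scale, on which all fold changes are given, the difference was 5.10. That scale understates the change of a gene that starts near 1 FPKM, and the difference was 5.95 with a pseudocount of 0.1 FPKM and 3.60 with one of 5 FPKM.

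Car4 was among the more abundant transcripts of the treated cells and near the limit of the tested range in the others. It stood at ranks 1245, 1085 and 1119 of 23656 genes in GM-CSF cultures, and at ranks 10195, 10138 and 10040 in untreated ones. Since Car4 was chosen for its difference between the groups, its rank by log2 fold change is only a description. That log2 fold change was the largest positive one of the 9929 tested genes whose transcripts reach 200 nt. The next was 4.24, and the 3 tested genes above Car4 were RNAs of 48 to 75 nt. The value with GM-CSF rested on between 72015 and 124587 aligned bases, and that without it on between 1151 and 1279, where the lowest transcripts clustered at 36 to 40 bases, about 1 read. Car4 is listed with a single transcript of 1300 nt and lies on chromosome 11 from 84957754 to 84966054 (GRCm38), on the plus strand, in 8 exons, and no other RefSeq gene overlaps it.

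**Figure D1:**
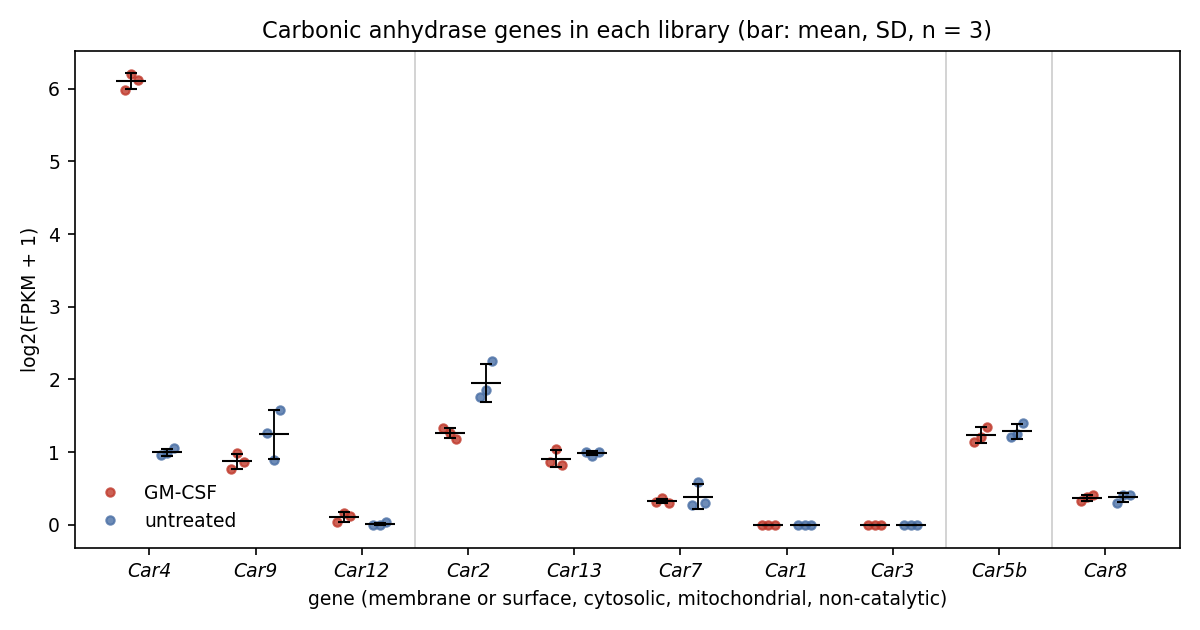
Level of each of the 10 genes on the log2(FPKM + 1) axis, with 1 point per library, GM-CSF in red and untreated in blue, and a bar for the mean and SD of 3. Vertical lines separate membrane, cytosolic, mitochondrial and non-catalytic members. Car4 stands apart in the GM-CSF cultures (62.2 to 72.4 FPKM), Car2 lies below its untreated values (1.27 to 1.503 against 2.37 to 3.76 FPKM), and Car1 and Car3 lie at 0.

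Among the 3 membrane-bound members, Car4 alone reached a high level. Car9 encodes a transmembrane enzyme with its active site outside the cell and is a known target of hypoxia-inducible factors. It was measured at 0.707, 0.973 and 0.819 FPKM with GM-CSF and at 1.39, 0.857 and 1.99 FPKM without it. One untreated culture lay inside the range of the treated ones, so the groups overlapped. The log2 fold change was -0.37 (SE 0.18, 95% interval -0.81 to 0.07, limma adjusted p = 0.208). The RefSeq gene overlaps Arhgef39 and Tpm2, and the sources used here do not say whether strand was used in counting, so reads of these genes may be mixed into its value.

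Car12 encodes the other transmembrane, outward-facing enzyme of the list. It was close to the detection limit, at 0.0230, 0.116 and 0.0875 FPKM with GM-CSF, against values of 0, 0 and 0.0224 FPKM without it. The groups did not overlap, but they rested on 76.1 to 571.1 aligned bases with GM-CSF and at most 76.1 bases without it. In the fit without a filter the log2 fold change was 0.09 (SE 0.04, limma adjusted p = 0.184).

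Car2, the fast and widespread cytosolic enzyme, fell. It was measured at 1.503, 1.404 and 1.272 FPKM with GM-CSF and at 2.37, 2.63 and 3.76 FPKM without it. Every GM-CSF culture was below every untreated one, and untreated replicate 3 was the highest. Means were 1.39 ± 0.116 FPKM and 2.92 ± 0.741 FPKM (SD, n = 3 each), so the treated mean was 47.7% of the untreated one. The log2 fold change was -0.70 (SE 0.14, 95% interval -1.04 to -0.35, limma adjusted p = 0.0156), -0.99 with a pseudocount of 0.1 FPKM and -0.30 with one of 5 FPKM.

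The Car2 values rested on 1867 to 3328 aligned bases with GM-CSF and 3978 to 6170 bases without it. The call ended without GM-CSF replicate 3 (-0.66, limma adjusted p = 0.0516), and over the alternatives tried its adjusted p ran between 0.0123 and that value. Epithelial cells and red cells are known sources of Car2. The epithelial marker sum moved the same way, as given above, but 5 of its 9 tested markers did not pass. Among these, Cdh1, Krt20, Fabp1 and Fabp2 had negative log2 fold changes (-0.36, -0.53, -0.71 and -0.41). Only Epcam had a positive one (0.27), averaging 14.6 FPKM with GM-CSF and 11.8 FPKM without it. The sums of eosinophil, neutrophil, B and plasma cell and T cell markers were lower with GM-CSF too, that of eosinophils mostly through Alox15. The part of epithelial cells in the fall of Car2 was not tested. Of the red cell genes, Slc4a1 was listed at 0 in every library, but the globin gene Beta-s was at 5.19, 2.02 and 0 FPKM with GM-CSF and at 0.176, 0 and 2.56 FPKM without it. These values are of the size of Car2 itself and do not follow the groups, and their part in the Car2 values was not tested.

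**Figure D2:**
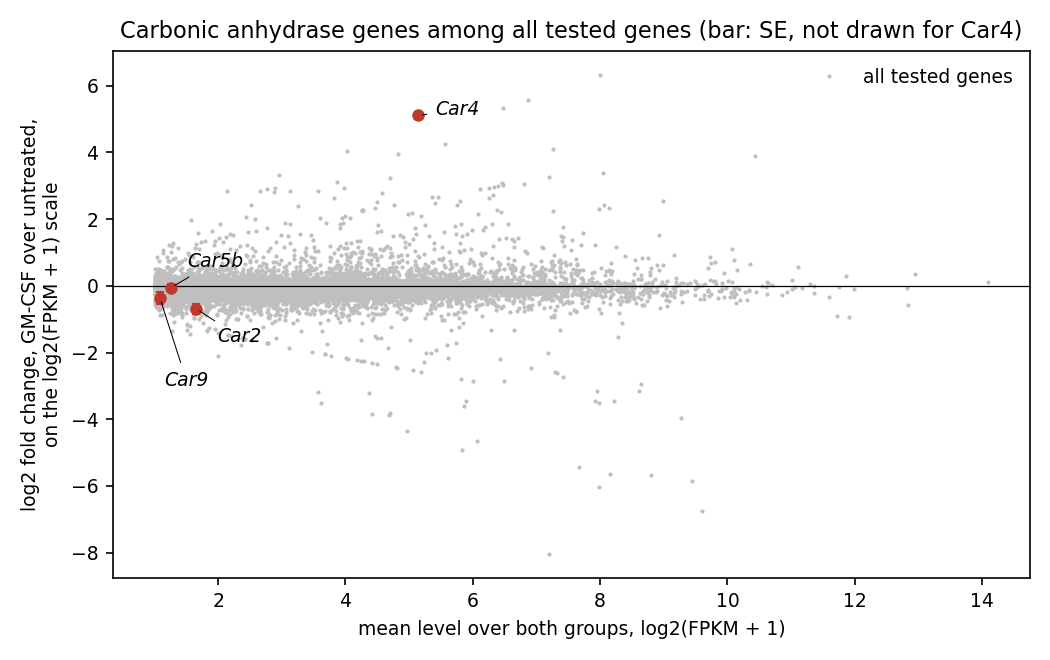
Log2 fold change of GM-CSF over untreated (vertical) against the mean level over both groups (horizontal, log2(FPKM + 1)) for all 10140 tested genes in grey, with the 4 tested members in red and the SE as bars for all but Car4. Car4 lies at 5.10, above all but 3 short RNAs, while Car2 (-0.70), Car9 (-0.37) and Car5b (-0.05) lie at low levels and below 0.

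The other cytosolic members were low or listed at 0. Car13, which is expressed in many tissues, was measured at 0.810, 1.06 and 0.775 FPKM with GM-CSF and at 1.01, 0.934 and 0.993 FPKM without it. The treated values spread across all of the untreated ones (without a filter, log2 fold change -0.07, SE 0.08, limma adjusted p = 0.640). Car7, known from the brain, was measured at 0.242, 0.285 and 0.230 FPKM with GM-CSF and at 0.201, 0.498 and 0.235 FPKM without it, again with overlap (log2 fold change -0.06, SE 0.09, limma adjusted p = 0.748). Car1, the abundant enzyme of red cells and the large bowel epithelium, and Car3, an enzyme of muscle and fat, were listed at 0 in all 6 libraries. An exact 0 in these files can be a failed estimate: Actr3, a cytoskeletal gene in general use, was listed at 0 in GM-CSF replicate 1 and at 422.8 FPKM or more in the other 5 libraries.

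Car1, Car2, Car3 and Car13 are neighbours on chromosome 3, where the 4 genes lie between positions 14641727 and 14900770, a span of 259.0 kb. Within this cluster, Car2 and Car13 were detected in every library while Car1 and Car3 were listed at 0. Of the cluster only Car2 met the 1 FPKM filter, so Car13 was tested just in the fit without one.

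Car5b encodes a mitochondrial enzyme. It was measured at 1.19, 1.31 and 1.54 FPKM with GM-CSF and at 1.30, 1.38 and 1.63 FPKM without it. The ranges overlapped almost wholly, and the log2 fold change was -0.05 (SE 0.10, 95% interval -0.30 to 0.20, limma adjusted p = 0.766). Its sign turned with quantile normalization, at 0.03, and without untreated replicate 3. Car8 lacks catalytic activity and binds the receptor for inositol trisphosphate. It was measured at 0.253, 0.297 and 0.325 FPKM with GM-CSF and at 0.235, 0.331 and 0.327 FPKM without it (without a filter, log2 fold change -0.01, SE 0.04, limma adjusted p = 0.958).

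In all, 4 of the 10 members passed the filter of 1 FPKM, 4 lay under it and above 0, and 2 were listed at 0. Car4 passed the filter only through its GM-CSF values and Car9 only through its untreated ones. Of the 3 tested members other than Car4, 1 changed, against 21.8% of all tested genes, and 3 genes are too few to read that share against. Of those 3, Car2 alone had groups that did not overlap, as 39.2% of all tested genes did, and nothing is read from that share either. In the fit without a filter, 10.7% of 18026 genes changed, and of the 6 fitted members other than Car2 and Car4 none did, with limma adjusted p between 0.184 and 0.958. The pseudocount of 1 FPKM flattens differences of the 4 members under the filter and above 0. Car12 had a ratio of means of 10.1 and a log2 fold change of only 0.09. That fit therefore says little on whether those 4 changed. In that fit the groups of 27.5% of all genes did not overlap. Besides Car4, which was chosen for its difference, this held for Car2 and Car12 among the members, and Car1 and Car3 were not in the fit.

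The order of mean levels in the family differed between the groups. From untreated to GM-CSF cultures, Car4 went from place 6 to 1, Car2 from 1 to 4 and Car9 from 4 to 7. Other genes, such as Car5a and Car12, also changed place. Over the 16 genes, Car4 was the highest with GM-CSF and the next, Car15, averaged 1.70 ± 0.473 FPKM (SD, n = 3). Car15, Car5a, Car2 and Car5b followed each other with overlapping values, then Car13, Car9 and Car14 overlapped below them. In untreated cultures Car2 was the highest, with no overlap with the next, Car15 at 1.83 ± 0.310 FPKM. By their means Car15, Car5b, Car9 and Car5a came next with overlapping values, and then Car4 and Car13. These last overlapped each other and lay below Car15, Car5b and Car5a, but inside the range of Car9, which ran between 0.857 and 1.99 FPKM.

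Car4 made up 88.9%, 87.4% and 87.7% of the summed FPKM of the 16 genes in the GM-CSF cultures, and 8.36%, 8.03% and 7.52% in the untreated ones. Car2 made up 2.15%, 1.70% and 1.62% with GM-CSF and 21.0%, 21.6% and 26.3% without it. The sum of the 10 members was 67.0, 77.8 and 73.9 FPKM with GM-CSF and 7.44, 7.61 and 10.0 FPKM without it. Without Car4 the sum of the members was lower in each treated culture, at 4.73, 5.45 and 5.05 FPKM, than in each untreated one. The untreated sums were 6.49, 6.63 and 8.96 FPKM, and most of that difference is Car2 and Car9. Over the 16 genes without Car4 the groups overlapped, at 7.76, 10.44 and 9.67 FPKM with GM-CSF and 10.34, 11.18 and 13.21 FPKM without it.

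The 6 family genes outside the list showed no comparable difference, and in none of them were the groups apart. Car15 encodes a membrane-anchored enzyme that in mice is close in type to Car4. It was measured at 1.16, 2.05 and 1.90 FPKM with GM-CSF and at 1.49, 2.09 and 1.91 FPKM without it (log2 fold change -0.08, SE 0.16, limma adjusted p = 0.789). Car5a, the other mitochondrial enzyme, averaged 1.47 ± 0.320 and 1.34 ± 0.211 FPKM with and without GM-CSF (SD, n = 3 each), and its log2 fold change was 0.07 (SE 0.13, limma adjusted p = 0.762). Car14, a transmembrane enzyme, averaged 0.778 and 0.788 FPKM, and Car10, which lacks catalytic activity, averaged 0.202 and 0.210 FPKM. Car6, the secreted enzyme of saliva, and Car11, which also lacks activity, were at or below 0.117 FPKM in every library. The receptor phosphatases with a carbonic anhydrase-like outer domain, Ptprg and Ptprz1, were listed at 0 and at or below 0.0260 FPKM.

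Carbonic anhydrases work beside acid-base transporters, and a list of 34 such genes was read in the same fit. The cells expressed a small part of it: 11 were tested, of which 1 rose, 2 fell and 8 did not pass, and the median log2 fold change was -0.05, the same as over all tested genes. Over all tested genes 7.60% rose and 14.2% fell, and 11 genes are too few to read these counts against those shares. Slc16a3, the lactate and proton exporter MCT4, was the highest and was measured at 310.7, 302.9 and 279.1 FPKM with GM-CSF and at 397.8, 380.0 and 375.5 FPKM without it. It fell with no overlap between groups (log2 fold change -0.37, SE 0.05, limma adjusted p = 0.00363), but with the highest transcript standing for the gene the call ended, at a larger log2 fold change of -0.49 (limma adjusted p = 0.0571).

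Hvcn1, the voltage-gated proton channel of phagocytes, fell to 39.1 ± 1.89 FPKM with GM-CSF, against 51.3 ± 6.02 FPKM without it (SD, n = 3 each), a log2 fold change of -0.38 (SE 0.09, limma adjusted p = 0.0260). That call ended without a filter (limma adjusted p = 0.0575), after rescaling to one FPKM sum (0.0512), and without GM-CSF replicate 1 (0.0807), GM-CSF replicate 2 (0.0757), untreated replicate 2 (0.0833) or untreated replicate 3 (0.0568). Slc9a3r1, which encodes a scaffold protein for sodium-proton exchangers, was the member that rose, with 149.5 ± 9.57 FPKM in GM-CSF cultures and 112.2 ± 10.0 FPKM in untreated ones (log2 fold change 0.41, SE 0.08, limma adjusted p = 0.0114).

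Membrane transporters known to work with Car4 in other cells were uneven in level. The anion exchanger gene Slc4a2 averaged 38.8 ± 0.705 FPKM with GM-CSF and 39.3 ± 1.77 FPKM without it (SD, n = 3 each; limma adjusted p = 0.817). Bsg, the chaperone of lactate exporters, averaged 86.5 ± 2.88 and 90.8 ± 2.78 FPKM (limma adjusted p = 0.314). The sodium bicarbonate cotransporter gene Slc4a4 averaged 0.0830 and 0.0960 FPKM and the red cell exchanger gene Slc4a1 was listed at 0.

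Hypoxia-inducible genes, the group to which Car9 and Car12 belong, went both ways. Of 17 listed, 15 were tested: 5 rose, 4 fell and 6 did not pass, with a median log2 fold change of 0.00 against -0.05 over all tested genes. Over all tested genes 7.60% rose and 14.2% fell. The list was chosen with earlier results of these data known, so nothing is read from its counts against those shares. Egln3, an oxygen-sensing prolyl hydroxylase, rose to 23.9, 27.0 and 24.9 FPKM with GM-CSF, against 2.05, 2.40 and 1.70 FPKM without it (log2 fold change 3.11, SE 0.10, limma adjusted p = 8.77e-06). Slc2a1, a glucose transporter gene, rose by 0.72 (SE 0.07), and Mxi1, a repressor of the Myc network, fell by 0.70 (SE 0.05; limma adjusted p = 0.000919 and 0.000172). The number that rose was 3 without GM-CSF replicate 3, untreated replicate 1 or untreated replicate 2, where Bnip3 and Ero1l no longer passed. The call of Bnip3 also ended without a filter (limma adjusted p = 0.0623) and without GM-CSF replicate 1 (0.0799). That of Ero1l also ended without the trend (limma adjusted p = 0.0503) and without GM-CSF replicate 2 (0.0838) or untreated replicate 3 (0.0691). Of the 4 that fell, Ndrg1 and Ddit4 lay under a filter of 5 FPKM, and the call of Ddit4 also ended without a filter, under every scaling tried, with the highest transcript, with the replicate block (limma adjusted p = 0.0706) and without any 1 library other than GM-CSF replicate 1.

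**Figure D3:**
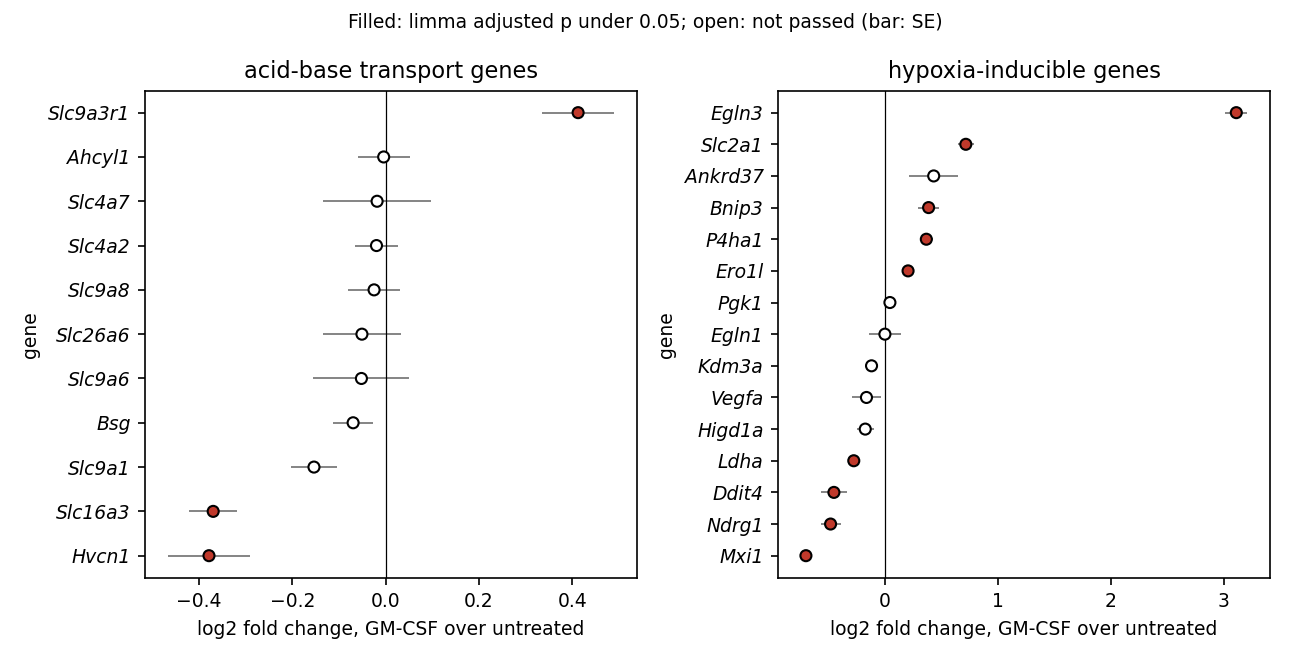
Log2 fold change of GM-CSF over untreated (horizontal) for the 11 tested acid-base transport genes on the left and the 15 tested hypoxia-inducible genes on the right, with SE as bars. Filled points passed limma at an adjusted p of 0.05: 1 rise and 2 falls on the left, 5 rises and 4 falls on the right, with Egln3 at 3.11 far from the rest. Over all tested genes 7.60% rose and 14.2% fell.

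The genes whose values across the 6 libraries were most like those of Car4 were Socs1, Tarm1, Tgm1, Ltb4r2 and Socs3. Likeness was the root mean square difference of log2(FPKM + 1), each gene centred on its own mean, and since Car4 was chosen for the difference between the groups, the comparison is a description. Socs1, a feedback inhibitor of cytokine signalling, was the nearest at 0.49, followed by Tarm1, an activating leukocyte receptor gene, at 0.57 and the transglutaminase gene Tgm1 at 0.58. Ltb4r2, a leukotriene B4 receptor gene, and Socs3, a second feedback inhibitor, lay at 0.91 and 0.94. Pearson's r with Car4 over the 6 libraries was between 0.99 and 1.00 for all 5, but 190 tested genes had an r above 0.99, because libraries of 2 separate groups give such values.

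Levels differed more than the patterns did. With GM-CSF, Car4 averaged 67.8 FPKM, Socs1 88.6, Tgm1 52.4, Socs3 45.7, Tarm1 29.6 and Ltb4r2 13.1 FPKM. Without it, Socs3 averaged 4.01, Socs1 3.77, Tgm1 2.44, Car4 0.997, Tarm1 0.887 and Ltb4r2 0.405 FPKM. The motif TTCNNNGAA, absent from the Car4 window printed above, was present in windows of 2 of the 4 of these genes that had RefSeq promoters, Tgm1 and Socs3.

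**Figure D4:**
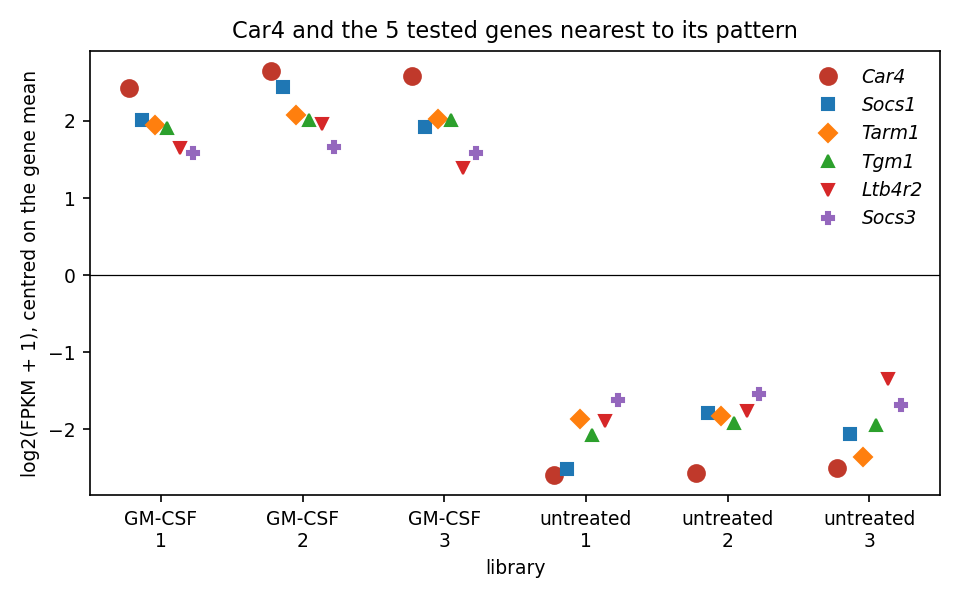
Log2(FPKM + 1) centred on each gene's mean (vertical) in each of the 6 libraries (horizontal), with 1 marker shape per gene. Car4 lies between 2.43 and 2.65 in the GM-CSF cultures and between -2.59 and -2.498 in the untreated ones, outside the 5 other genes on both sides in every library.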

How the data were processed

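Trizol was used to extract RNA, and the libraries were TruSeq Stranded mRNA libraries from Illumina, per the labels' protocols. Tools named in the submitters' processing notes are Cufflinks, TopHat, TopHat2 and bcl2fastq 1.8.4, with mm10 (GRCm38) as the build. The authors deposited FPKM for 30374 RefSeq transcripts per library. The deposited coverage per base was used with transcript length only to give aligned bases. Coverage divided by FPKM is 1 constant per library and gives the mapped gigabases. No read counts were used, so no count test was run, and depth limits precision for genes near 1 FPKM.

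FPKM were summed per symbol and locus (23656 genes from 23283 symbols, 221 of them at more than 1 locus). Genes averaging 1 FPKM or more entered limma 3.58.1 in R 4.3.3 on log2(FPKM + 1), with group as the only term, empirical Bayes with a trend, two-sided tests, Benjamini-Hochberg adjustment over all tested genes and a threshold of 0.05. The code was tested on simulated data. The members and lists were chosen with earlier results of these data known. Named are all family genes, Ptprg and Ptprz1, up to 3 genes per list by size of change among those that passed, and the 5 genes most like Car4. Genes named beyond these were chosen for a known link to Car4 or after their values were seen. Alternatives were other pseudocounts, filters and scalings, the highest transcript, no trend, a replicate block and leaving out each library. Promoter sequences are from RefSeq (GRCm38.p6).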

Additional observations from a re-analysis of the deposited data

How the results depend on the processing

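Against 2209 changed genes as reported, the 16 alternatives gave 1516 to 2224, with 1516 to 1787 when 1 library was left out. Car4 was higher with GM-CSF under all 16, and its log2 fold change left the spread between replicates with a pseudocount of 0.1 FPKM (5.95) and of 5 FPKM (3.60), since the pseudocount sets the scale for a gene near 1 FPKM. Leaving out 1 library gave 5.06 to 5.16. Car2 had a negative log2 fold change under all 15 alternatives that tested it, between -0.80 and -0.55 when 1 library was left out, and did not pass without GM-CSF replicate 3 (-0.66). Car9 did not pass in any of 14. The sign of Car5b, which passed nowhere, turned with quantile normalization (0.0329) and without untreated replicate 3 (0.0024, in a range that began at -0.11). Of the acid-base genes, 1 in place of 2 fell after rescaling to one sum and with the highest transcript, and 1 to 2 when 1 library was left out. Of the hypoxia-inducible genes, 2 in place of 4 fell with a filter of 5 FPKM, where fewer genes were tested, and 3 to 5 rose when 1 library was left out. The causes of the changes with left-out libraries and scalings were not tested. No shared effect of the replicate number was seen: deviations of same-numbered libraries correlated at -0.03, 0.05 and -0.02. Those of differently numbered libraries ran from -0.06 to 0.08. With 3 libraries per group, these values cannot decide whether the cultures were paired. With the replicate block 1991 genes changed, Car4 stood at 5.10 and Car2 at -0.70 (limma adjusted p = 0.0446). Depth limits Car12, Car6 and Car11, which rested on a few reads.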

Other observations

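Genes beside Car4 on chromosome 11 were also read, a choice made after the values were seen. Of 8 RefSeq genes within 100 kb of Car4, 5 are in the files. Znhit3, which lies 41.4 kb before Car4, was measured at 8.75, 8.04 and 10.2 FPKM with GM-CSF and at 5.35, 5.92 and 3.42 FPKM without it. It rose with no overlap between groups (log2 fold change 0.78, SE 0.18, limma adjusted p = 0.0230), though without a filter it did not pass (limma adjusted p = 0.0576). Myo19, a mitochondrial myosin gene whose end overlaps that of Znhit3, was under the filter at 0.674, 0.877 and 0.602 FPKM with GM-CSF, against 0.196, 0.189 and 0.0528 FPKM without it (without a filter, log2 fold change 0.58, SE 0.08, limma adjusted p = 0.0106). Both genes end in the same 3′ stretch on opposite strands, so their values are uncertain.

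Usp32, a ubiquitin protease gene 18.4 kb after Car4, was measured at 25.6, 26.2 and 27.5 FPKM with GM-CSF and at 29.3, 30.0 and 33.9 FPKM without it (log2 fold change -0.22, SE 0.07, limma adjusted p = 0.0586). Pigw, which encodes an enzyme of GPI anchor synthesis, averaged 1.48 ± 0.490 FPKM with GM-CSF and 1.28 ± 0.268 FPKM without it (SD, n = 3 each; limma adjusted p = 0.733). Ggnbp2 averaged 46.8 ± 3.79 and 43.5 ± 0.404 FPKM (SD, n = 3 each; limma adjusted p = 0.316). None of the 5 came near the ratio of 68.0 seen for Car4.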
